A study of Mus musculus with 2 samples.

Results

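The genes described here encode signals that pass between neurons and microglia. There were 10 of them among the 31053 genes of the count matrices: the CSF1R ligands Csf1 and Il34, the chemokines Cx3cl1 and Ccl2, the TGF-beta ligands Tgfb1 and Tgfb2 with the type I receptor Tgfbr1, and the surface signals Cd200, Cd47 and Sirpa. They were chosen by name for their known roles, and their levels were read in 12 labels of nuclei. These were 9 neuron labels with at least 50 nuclei each, plus microglia and perivascular macrophages (Micro-PVM), astrocytes (Astro) and a label named Unknown. The study describes Unknown as a neuronal cluster whose place in the cortex it could not establish. Below, neurons and neuronal nuclei are those of the 9 neuron labels, without Unknown. The 12 labels held 7037 of the 8171 labelled nuclei.

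The nuclei came from mice of the genotype Atf3-CreER:+/wt; SUN-SfGFP:+/wt, over 7 weeks of age, after mild traumatic brain injury (mTBI). Cre recombinase was driven from the Atf3 locus and, after tamoxifen at 4 and 5 days post injury (dpi), turned on a GFP of the nuclear envelope in cells that expressed Atf3, a transcription factor of the injury response. GFP+ nuclei of the ipsilateral cortex were sorted at 7 dpi and sequenced as 2 libraries, 1 of males and 1 of females, each a pool of 4 animals. For the female library, 1 public label states male, against its title and the deposited table, and the latter were followed. Every nucleus was thus from injured cortex and had passed the GFP sort, so no comparison with uninjured cells could be made, and sex could not be told apart from library or depth.

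CSF1 and IL-34 both bind the receptor CSF1R, on which microglia depend for survival, and in the brain IL-34 is known mainly from neurons. CX3CL1 sits on the neuronal membrane and is read by CX3CR1 on microglia, CD200 is read by CD200R1, and CD47 is read by SIRP-alpha, the product of Sirpa. TGF-beta ligands are secreted in a latent form, are freed by integrins and bind a receptor made of TGFBR1 and TGFBR2, a signal that keeps microglia in their resting state.

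Micro-PVM held 4028 nuclei, Astro 115, Unknown 395 and the neuron labels 2499 together, while 34 nuclei that were Micro-PVM in one column and neurons in another were not counted as Micro-PVM. The summed nuclei carried 9552659 UMIs (male) and 21126190 UMIs (female), and 1 barcode was called in both libraries. The UMIs of a gene in a label's summed nuclei were scaled to 1000000 UMIs over all genes (CPM), and each pair of levels gives the male library first. Levels of different genes are not comparable on this scale, because the assay counts 3′ ends and intronic priming, with no correction for length. Neuronal markers summed to between 12819 and 24061 CPM in the neuron labels, to 8009 and 7180 in Unknown and to 2577 and 1380 in Micro-PVM. The summed level of 9 microglial markers in neurons was 2.16% (male) and 2.07% (female) of that in Micro-PVM. L2/3 IT CTX-2 of the female library stood apart at 9.86%.

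**Figure D1:**
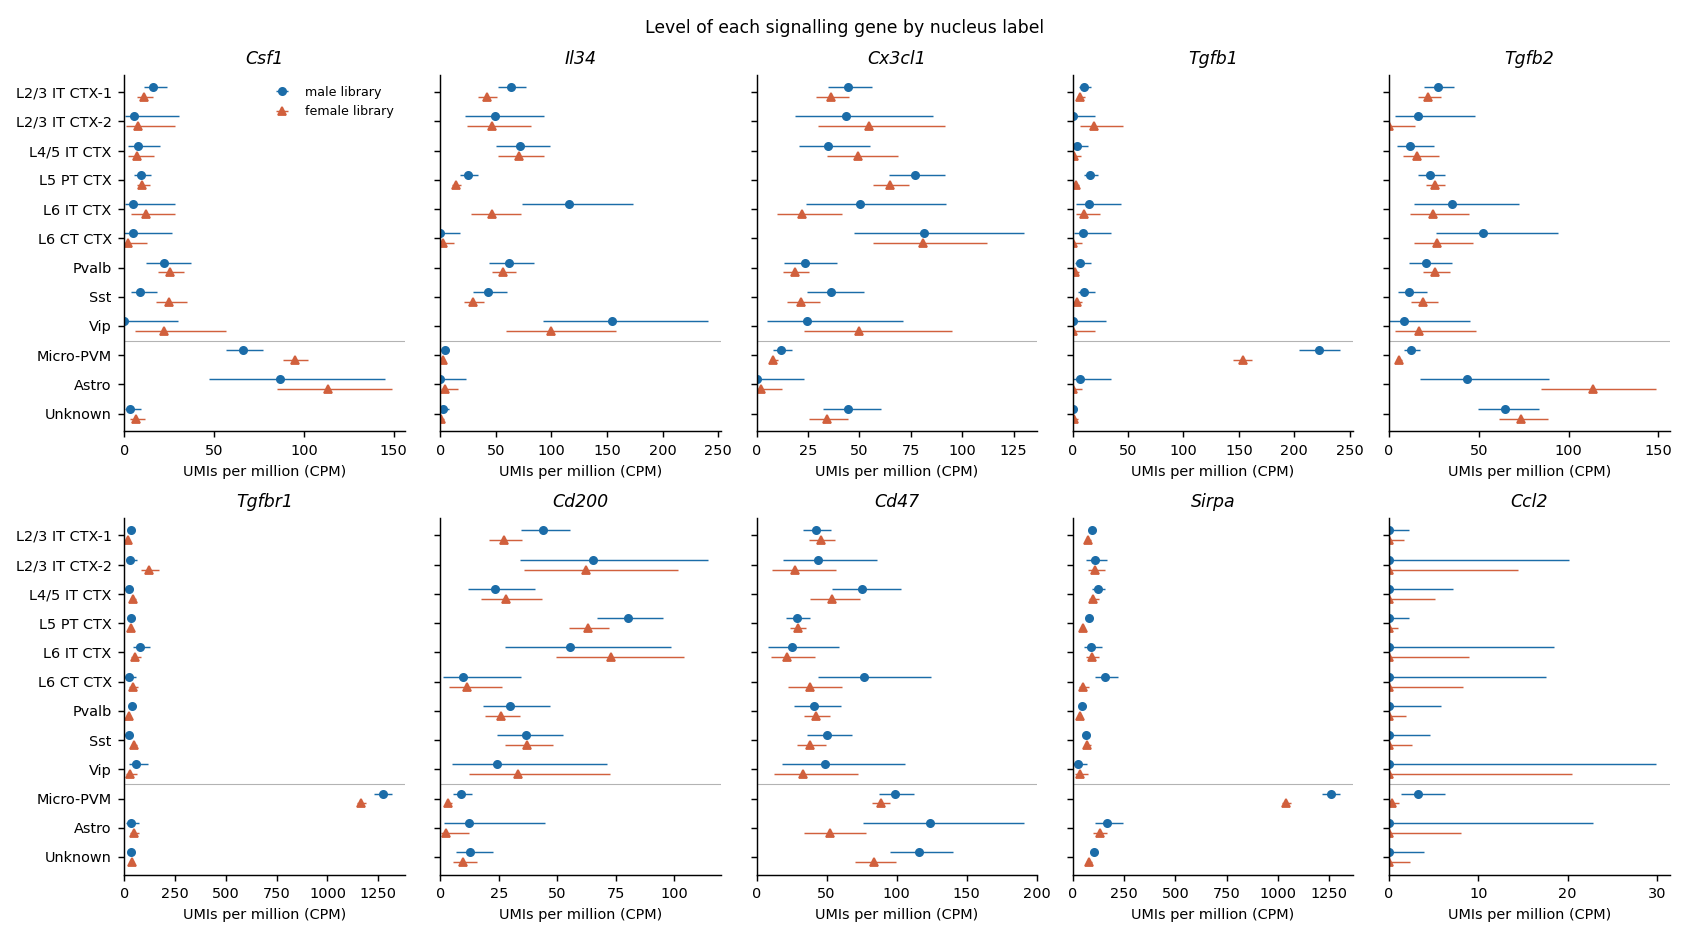
Level of each of the 10 genes (CPM, horizontal) in the 12 labels of nuclei (vertical), with circles for the male and triangles for the female library and bars for the exact 95% Poisson interval, which covers counting error only. Tgfb1, Tgfbr1 and Sirpa stood far above the neuron labels in Micro-PVM. Of these 12 labels, Il34 and Cd200 were highest in neuron labels and Ccl2 had UMIs in Micro-PVM alone.

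Against the mean of the neuron labels, 9 of the 10 genes passed the filter on low counts and all 9 of these differed in Micro-PVM at an adjusted p below 0.05, where 64.1% of all 10824 genes tested did. Higher in Micro-PVM were 5 (36.3% of all genes), namely Tgfb1, Tgfbr1, Sirpa, Csf1 and Cd47, and lower were 4 (27.8% of all genes), namely Il34, Cd200, Cx3cl1 and Tgfb2. Their median log2 fold change was 1.23, against 0.18 over all genes tested. With this background, the calls are read below gene by gene. In a sum, fewer nuclei that express a gene and less RNA per nucleus cannot be told apart, so shares of nuclei with a UMI are given beside the main levels. All tests were edgeR's quasi-likelihood test on the 24 sums of UMIs per library and label, with Benjamini-Hochberg adjustment over all genes tested. The pools were the only replicates (n = 2 libraries), so these p-values measure the spread between sums and not between animals.

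**Figure D2:**
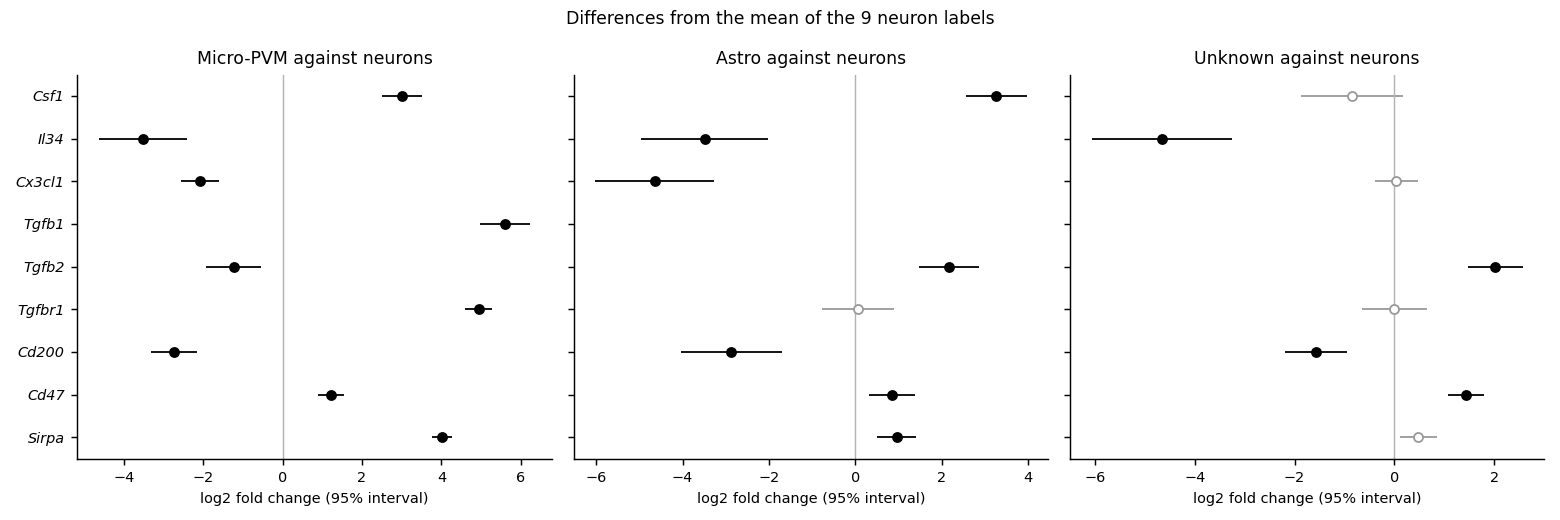
Log2 fold change of 9 of the genes in Micro-PVM, Astro and Unknown nuclei against the mean of the 9 neuron labels (horizontal, bars 95% intervals from the SE). Filled points passed an adjusted p of 0.05 and open points did not, Ccl2 did not pass the filter, and Tgfb1 had no estimable value for Astro and Unknown; Il34 and Cd200 lay left of 0 in all 3 panels.

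The 2 ligands of CSF1R had their highest levels in different labels. Csf1, at chr3:107741048-107760469 of GRCm38, was highest in Astro, at 86.6 and 114 CPM, and in Micro-PVM, at 66.2 and 95.2 CPM. These labels overlapped each other and lay above every neuron label in both libraries. Among neurons the highest mean was in Pvalb interneurons, at 22.1 and 25.3 CPM, and L6 CT was lowest, at 4.78 and 2.24 CPM on 1 UMI in each library. Csf1 was higher than in neurons on the log2 scale, by 3.0 ± 0.26 (± SE here and below, adjusted p = 7.2e-11 by edgeR's quasi-likelihood test) in Micro-PVM and 3.26 ± 0.36 (adjusted p = 2.4e-08) in Astro. Astro carried neuronal markers at a level near that of Micro-PVM, 1473 and 1543 CPM summed, and the part of such RNA in its values was not tested.

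Il34, at chr8:110741829-110805924, was highest in neuron labels. Vip interneurons stood highest, at 154 and 100.0 CPM, followed by L6 IT at 115 and 46.3 CPM and L4/5 IT at 71.6 and 70.4 CPM. L6 IT overlapped both of these, whereas Vip and L4/5 IT did not overlap each other. The female L6 IT value lay as low as the labels that follow. Pvalb, L2/3 IT CTX-1 and L2/3 IT CTX-2 lay next, between 41.7 and 63.8 CPM, then Sst, at 42.7 and 29.2 CPM, which overlapped L2/3 IT CTX-1 but not L2/3 IT CTX-2, and L5 PT, at 25.1 and 13.9 CPM, which overlapped no other label. L6 CT stood apart from the other neuron labels. It had 0 UMIs in 41 nuclei of the male library, where 3 UMIs would be 14.3 CPM, and 1 UMI in 44 nuclei of the female library, or 2.24 CPM. Micro-PVM, Astro and Unknown all lay at or below 4.41 CPM.

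Il34 UMIs were found in 35.3% of male Vip nuclei (exact 95% interval 19.7 to 53.5%, 34 nuclei, median 3040.5 UMIs) and in 29.6% of female ones (13.8 to 50.2%, 27 nuclei, median 6326 UMIs). In Micro-PVM, whose nuclei had a median of 1298.5 and 3012.5 UMIs, these shares were 0.473% and 0.727%. With every nucleus thinned to 2300 UMIs, the shares were 22.2% and 19.2% in Vip and 1.55% and 0.474% in Micro-PVM. The share of nuclei was thus higher in Vip at equal depth too. In L6 IT of the male library the 23 UMIs lay in 8 of 87 nuclei. Il34 differed from neurons, on the log2 scale, by -3.51 ± 0.57 in Micro-PVM (adjusted p = 4.8e-06 by edgeR's quasi-likelihood test), -3.49 ± 0.75 in Astro (adjusted p = 4.5e-04) and -4.66 ± 0.72 in Unknown (adjusted p = 6.8e-06). Astro held 2 and Unknown 3 Il34 UMIs in all, so these fitted values depend on the prior count.

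The antisense genes Gm15894 and Gm15895 overlap Il34, and whether the counting used strand is not stated in the sources used here.

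The receptor CSF1R, by contrast, was a Micro-PVM transcript. Csf1r stood at 501 and 458 CPM in Micro-PVM and between 5.63 and 43.6 CPM in the neuron labels, a log2 fold change of 4.95 ± 0.16 by edgeR's quasi-likelihood test. Ptprz1, which encodes a receptor phosphatase that also binds IL-34, was an Astro transcript at 2147 and 1585 CPM, with 422 and 294 CPM in Vip, 390 and 338 CPM in Unknown and 10.4 and 14.2 CPM in Micro-PVM. Its log2 fold change was 6.15 ± 0.17 in Astro and 4.05 ± 0.19 in Unknown. Vip, the neuron label highest in Il34, was also the one highest in Ptprz1.

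Both chemokines were read with their receptors. Cx3cl1, at chr8:94772009-94782427, had UMIs in all neuron labels and in Unknown. It was highest in L6 CT, at 81.2 and 80.8 CPM, then in L5 PT, at 77.2 and 65.1 CPM, and neither overlapped the next label. Labels from L2/3 IT CTX-2 down to Sst overlapped with their neighbours between 21.6 and 54.7 CPM. Pvalb was the lowest neuron label by mean, at 23.7 and 18.6 CPM, and Micro-PVM, at 12 and 8.21 CPM, and Astro, at 0 and 2.18 CPM, lay below all neurons. Unknown, at 44.7 and 34.1 CPM, differed from neurons by 0.04 on the log2 scale (95% interval -0.40 to 0.48, adjusted p = 0.960 by edgeR's quasi-likelihood test).

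Nuclei with a Cx3cl1 UMI made up 31.7% and 40.9% of L6 CT, whose median was 4473 and 10343.5 UMIs, and 0 of 53 (which allows up to 5.66%) and 1.61% of Astro, whose median was 2637 and 5286 UMIs. After thinning to 2300 UMIs the shares in L6 CT were 25.7% and 20.5%, against 17.5% and 12.1% in L5 PT. Cx3cl1 was lower than in neurons on the log2 scale, by -2.08 ± 0.24 in Micro-PVM (adjusted p = 2.0e-08 by edgeR's quasi-likelihood test) and -4.64 ± 0.70 in Astro (adjusted p = 4.5e-06), the latter on 1 UMI.

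Cx3cr1, its receptor, stood at 565 and 389 CPM in Micro-PVM and between 5.46 and 50.8 CPM in neurons, 5.12 ± 0.20 higher on the log2 scale. The proteases ADAM10 and ADAM17, which shed CX3CL1 from the membrane, were found in every label. Adam10 was 1.20 ± 0.18 higher in Micro-PVM, at 171 and 139 CPM, and Adam17 was 2.60 ± 0.14 higher, at 225 and 199 CPM, both on the log2 scale.

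Ccl2, at chr11:82035571-82037453, encodes the ligand of the monocyte receptor CCR2. It had 8 UMIs in 7 of 1690 Micro-PVM nuclei of the male library and 3 UMIs in 3 of 2338 of the female library, or 3.21 and 0.373 CPM. It was at 0 in the other 11 labels in both libraries. Outside the 12 labels, nuclei labelled VLMC (vascular leptomeningeal cells) held 3 UMIs in the male and 1 UMI in the female library, or 6.16 CPM (95% interval 1.27 to 18.0) and 0.995 CPM (0.0252 to 5.54). Where 3 UMIs are taken as the limit of a 0, this allowed up to 1.84 CPM in L5 PT of the male and 0.868 CPM in L5 PT of the female library, but up to 24.3 CPM in Vip of the male library. Neuronal Ccl2 was therefore not detectable at this depth, which is not the same as absent in the smaller labels. Ccl2 did not pass the filter on low counts and was not tested. Of the 12 labels Ccr2 was likewise found in Micro-PVM alone, with 14 and 22 UMIs, 5.61 and 2.74 CPM.

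The TGF-beta genes split by ligand. Tgfb1, at chr7:25687002-25705077, was a Micro-PVM transcript at 222 and 153 CPM, and no other label exceeded 19.5 CPM. Neuron labels other than Vip ran from 0 to 19.5 CPM, overlapping their neighbours. In Vip it had 0 UMIs in both libraries, which allows up to 24.3 and 16.7 CPM. The log2 fold change in Micro-PVM was 5.61 ± 0.32 (adjusted p = 3.6e-14 by edgeR's quasi-likelihood test). Nuclei with a UMI made up 24% and 34.0% of Micro-PVM, or 30.9% and 26.1% after thinning to 2300 UMIs, a depth that only 194 of 1690 and 1689 of 2338 of these nuclei reached.

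Tgfb2, at chr1:186622792-186705989, was found elsewhere. Astro, at 43.3 and 114 CPM, and Unknown, at 64.9 and 73.8 CPM, were highest of the 12 labels and overlapped. Outside them, it stood at 195 and 111 CPM in nuclei labelled SMC-Peri (43 and 18 UMIs) and at 195 and 44.8 CPM in VLMC (95 and 45 UMIs), which were in no test. L6 CT, the next label, at 52.5 and 26.9 CPM, overlapped Astro and not Unknown. Micro-PVM stood at 12 and 5.60 CPM. Tgfb2 differed from neurons, on the log2 scale, by 2.17 ± 0.35 in Astro (adjusted p = 1.3e-05 by edgeR's quasi-likelihood test), 2.02 ± 0.28 in Unknown (adjusted p = 1.3e-06) and -1.23 ± 0.35 in Micro-PVM (adjusted p = 0.0036). The Astro value was 0.83 in the male library alone and 2.91 in the female library alone, and the Micro-PVM value was -0.70 in the male library alone and did not pass with neurons that held microglial UMIs left out (-0.94, adjusted p = 0.064). The 3 Tgfb2 UMIs of L2/3 IT CTX-2 were all in the male library, and the 0 in the female library allowed up to 11.7 CPM. A small nucleolar RNA gene and the antisense gene Gm29491 overlap Tgfb2 on the other strand.

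Tgfbr1, at chr4:47353222-47414931, was at 1271 and 1167 CPM in Micro-PVM, and the label with the next highest mean was L2/3 IT CTX-2, at 27.3 and 121 CPM. Tgfbr1 was higher in Micro-PVM on the log2 scale, by 4.94 ± 0.17 (adjusted p = 6.3e-19 by edgeR's quasi-likelihood test). Astro and Unknown differed from neurons by 0.07 (95% interval -0.77 to 0.90, adjusted p = 0.959) and -0.0019 (-0.66 to 0.65, adjusted p = 1) on the log2 scale. Of Micro-PVM nuclei, 70.7% and 86.0% had a Tgfbr1 UMI. At 2300 UMIs a nucleus these shares were 91.8% and 84.0%, against 3.83% and 2.95% in L2/3 IT CTX-1.

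The other receptor chain moved alike in Micro-PVM: Tgfbr2 stood at 570 and 564 CPM there, 4.67 ± 0.16 higher than in neurons on the log2 scale. Nrros, whose product anchors latent TGF-beta 1 on microglia, stood at 431 and 366 CPM in Micro-PVM and 55.7 and 69.9 CPM in Astro, 6.19 ± 0.24 and 3.53 ± 0.51 higher. Barcodes with at most 50 UMIs, taken as empty droplets, held Nrros at 91.9 and 97.0 CPM, above Astro. In Astro the 9 microglial markers were at 2.74% and 5.11% of their level in Micro-PVM. What part of the Nrros UMIs in Astro came from microglial RNA was not tested. The integrin subunits that free the ligand differed in place, with Itgav highest in Micro-PVM (202 and 190 CPM, 2.18 ± 0.18 higher) and Itgb8 in Astro (111 and 118 CPM, 3.66 ± 0.34 higher) and Unknown (62.7 and 77.6 CPM, 3.17 ± 0.28 higher). Itgb8 in Micro-PVM, at 7.62 and 3.36 CPM, did not pass the test (adjusted p = 0.0653 by edgeR's quasi-likelihood test). The binding proteins of latent TGF-beta Ltbp1 and Ltbp4 were lower in Micro-PVM, by -2.55 ± 0.27 and -2.95 ± 0.49 on the log2 scale, and Ltbp1 was also lower in Unknown, by -3.47 ± 0.39.

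The surface signals were Cd200, Cd47 and Sirpa. Cd200, at chr16:45382135-45409053, encodes a membrane protein of neurons that restrains myeloid cells. It was highest in L5 PT, at 80.2 and 63.0 CPM, in L6 IT, at 55.2 and 73.1 CPM, and in L2/3 IT CTX-2, at 65.5 and 62.5 CPM, which overlapped one another and no label below. Sst, L2/3 IT CTX-1, Vip, Pvalb and L4/5 IT followed, between 23.2 and 43.9 CPM. L6 CT, at 9.55 and 11.2 CPM, lay with Unknown, Astro and Micro-PVM, at 12.8 CPM or less. Cd200 was lower than in neurons on the log2 scale, by -2.73 ± 0.29 in Micro-PVM (adjusted p = 4.4e-09 by edgeR's quasi-likelihood test), -2.87 ± 0.60 in Astro (adjusted p = 3.2e-04) and -1.57 ± 0.32 in Unknown (adjusted p = 2.7e-04). The Astro value was -1.75 in the male library alone and -3.77 in the female library alone.

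Cd200 UMIs were found in 26.4% and 39.0% of L5 PT nuclei (median 3790 and 10700 UMIs) and in 1.30% and 1.15% of Micro-PVM nuclei, or 14.9% and 12.5% against 2.58% and 0.770% at 2300 UMIs a nucleus. Its receptor gene Cd200r1 stood at 27.7 and 47.0 CPM in Micro-PVM, 5.24 ± 0.47 higher than in neurons on the log2 scale.

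Cd47, at chr16:49800533-49915010, encodes a signal against engulfment. It had UMIs in every label of both libraries. Unknown, at 116 and 83.9 CPM, Micro-PVM, at 99.0 and 88.5 CPM, and Astro, at 124 and 52.4 CPM, overlapped at the top, and L5 PT, at 28.8 and 29.2 CPM, and L6 IT, at 25.1 and 21.9 CPM, stood lowest without overlapping each other. Cd47 was higher than in neurons on the log2 scale, by 1.44 ± 0.18 in Unknown (adjusted p = 2.8e-07 by edgeR's quasi-likelihood test), 1.23 ± 0.17 in Micro-PVM (adjusted p = 2.8e-07) and 0.85 ± 0.27 in Astro (adjusted p = 0.0132, or 0.083 with no filter on low counts).

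The promoters of Cd200 and Cd47 were the only ones with a match to a half-site of the cAMP response element family, to which ATF3 binds, among the genes with an entry in the RefSeq set for GRCm38.p6, which were 7 of the 10 (9 start sites, each from 250 bases before to 50 after). The letters TGACGT were searched on both strands, so that a match reads ACGTCA on the other. They were held by 7.51% of all 32851 promoters of that set. The longer letters TGACGTCA, in which this half-site is contained (1.79% of all promoters), the AP-1 letters TGANTCA (7.81%) and the letters TGACGCAA (0.490%) and TGATGCAA (0.895%) were found in none of these 9. The sequences are shown because they are the 2 matches, with the match in capitals, each read on the strand of its gene. That of Cd200 lies at chr16:45409219-45409284 on the minus strand, its match 201 bases before the start, and that of Cd47 at chr16:49855549-49855614 on the plus strand, 75 bases before a start inside the gene's span.
Cd200: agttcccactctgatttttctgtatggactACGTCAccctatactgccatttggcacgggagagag
Cd47: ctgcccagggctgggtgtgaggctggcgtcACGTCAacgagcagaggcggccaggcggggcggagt
A match of letters is no measure of binding, and binding was not measured in these libraries.

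Sirpa, at chr2:129592835-129632228, encodes the receptor of CD47 and was again highest in Micro-PVM, at 1258 and 1040 CPM. Astro followed, at 167 and 131 CPM, and overlapped neither neighbour, though L6 CT, lower by mean, reached 158 CPM in the male library and 51.6 CPM in the female one. L4/5 IT, at 122 and 100.0 CPM, headed a run of overlapping labels, and Pvalb, at 44.2 and 35.1 CPM, and Vip, at 24.3 and 33.3 CPM, were lowest. Sirpa was higher than in neurons on the log2 scale, by 4.02 ± 0.13 in Micro-PVM (adjusted p = 2.1e-19 by edgeR's quasi-likelihood test) and 0.96 ± 0.23 in Astro (adjusted p = 0.0015). In Unknown, at 102 and 78.8 CPM, it was 0.48 ± 0.19 and missed the threshold (adjusted p = 0.0565). With the library as a replicate block it passed (0.48, adjusted p = 0.0288), and with ambient RNA subtracted it was 1.63 (adjusted p = 0.0139). Ptpn6, a phosphatase recruited by SIRP-alpha, stood at 76.6 and 65.4 CPM in Micro-PVM, 4.87 ± 0.34 higher than in neurons on the log2 scale, while Thbs1, a secreted ligand of CD47, had no more than 6.65 CPM in any of the 12 labels.

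In Astro, 7 genes were called, where 35.8% of all genes tested were, with 4 higher (19.4% of all genes) and 3 lower (16.5%). In Unknown, 4 were called, where 33.2% of all genes were, with 2 higher (19%) and 2 lower (14.2%). The 4 were Tgfb2, Cd47, Il34 and Cd200. Both comparisons share the neuron labels, and that of Unknown sets a cluster the study calls neuronal against them. In Astro and Unknown no value could be estimated for Tgfb1, because Vip and a library of these labels were at 0.

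Several of these genes are microglial transcripts, and the UMIs of such a gene in neurons were therefore set against those of the microglial markers. The level of Tgfbr1 in pooled neuronal nuclei was 2.67% of that in Micro-PVM (95% interval 2.30 to 3.08%) for the male and 2.90% (2.60 to 3.21%) for the female library. For the 9 markers it was 2.16% (1.92 to 2.43%) and 2.07% (1.87 to 2.30%). The intervals met in the male library and were separate in the female one. Tgfb1, at 4.61% (3.48 to 6.01%) and 2.66% (1.93 to 3.58%), lay above the markers in the first and overlapped them in the second. The receptor gene Csf1r was at 3.49% (2.83 to 4.26%) and 2.39% (1.98 to 2.87%), and Cx3cr1 at 3.06% (2.48 to 3.74%) and 2.82% (2.33 to 3.38%). Of these intervals, only that of Csf1r in the female library met the interval of the markers.

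Sirpa, at 6.70% (6.09 to 7.37%) and 5.85% (5.40 to 6.33%), Csf1, at 17.8% and 15.3%, and Cd47, at 43.6% and 42.7%, lay above the markers in both libraries. The level of a neuron label followed the markers in places: in L2/3 IT CTX-2 of the female library, where the markers reached 9.86%, Tgfbr1 was at 10.4% (7.05 to 14.7%) and Sirpa at 10.5%, and 12 of 77 nuclei carried all 31 of its Tgfbr1 UMIs. What part of the Tgfbr1, Tgfb1, Sirpa, Csf1 and Cd47 UMIs in neurons came from microglial RNA was not tested. In the barcodes with at most 50 UMIs, taken as empty droplets, Sirpa stood at 432 and 466 CPM and Tgfbr1 at 242 and 283 CPM, above each of the 12 labels but Micro-PVM. Csf1 stood there at 23.5 and 40.1 CPM and Tgfb1 at 91.9 and 50.2 CPM, above each neuron label. Cd47, at 77.0 and 47.9 CPM, lay above each neuron label but L4/5 IT of the female library. The neuronal genes were in these droplets too, with Il34 at 32.1 and 35.7 CPM, Cx3cl1 at 77.0 and 69.1 CPM and Cd200 at 49.2 and 32.3 CPM, each above its level in Micro-PVM. Of the neuron labels, L5 PT and L6 CT lay below the droplets for Il34 in both libraries, and Sst in the female one. For Cd200, L2/3 IT CTX-1, L4/5 IT, L6 CT and Pvalb lay below them in both libraries, and Sst and Vip in the male one. For Cx3cl1 the droplets also lay above Unknown and above most neuron labels. Only L6 CT in both libraries and L5 PT in the male library, at 77.2 CPM, exceeded them.

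**Figure D3:**
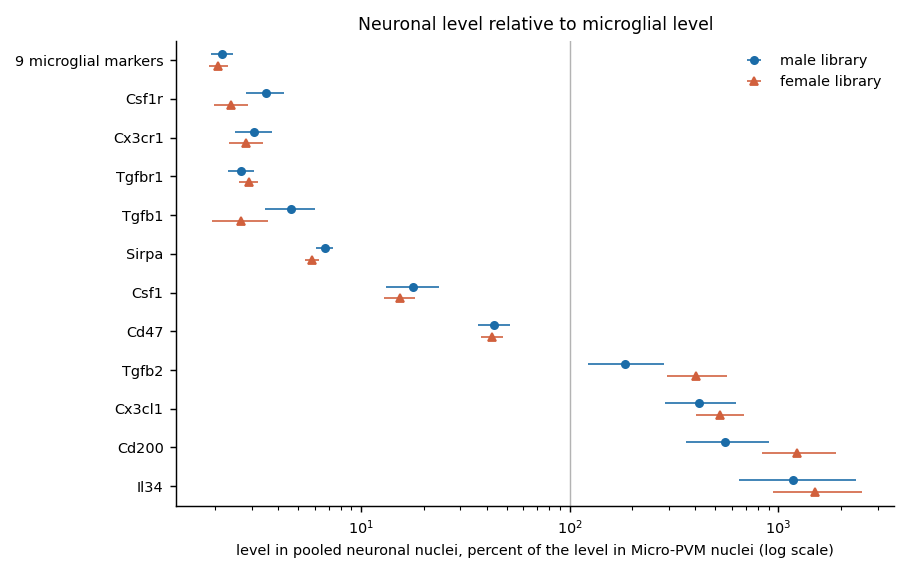
Level of each gene in pooled neuronal nuclei as a percent of its level in Micro-PVM nuclei (horizontal, log scale) for 9 microglial markers together and for single genes, by library, with 95% intervals for counting error. Tgfbr1, Tgfb1, Csf1r and Cx3cr1 lay between 2.39% and 4.61%, above the markers at 2.16% and 2.07%, with intervals that met those of the markers in part. Il34, Cd200, Cx3cl1 and Tgfb2 lay right of 100%.

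Among the neuron labels alone, 6 of the 9 genes differed at an adjusted p below 0.05, where 31.8% of all genes did. These were Il34 (adjusted p = 2.3e-06), Cd200 (adjusted p = 3.5e-04), Cx3cl1 (adjusted p = 3.8e-04), Sirpa (adjusted p = 0.0020), Cd47 (adjusted p = 0.0259) and Csf1 (adjusted p = 0.0430), all by a joint edgeR quasi-likelihood test. Tgfbr1 (adjusted p = 0.175, or 0.0146 with no filter on low counts), Tgfb2 (adjusted p = 0.303) and Tgfb1 (adjusted p = 0.524) did not pass. Csf1 lost the call with L6 CT left out (adjusted p = 0.088) and Cd47 with L6 IT left out (adjusted p = 0.080), whereas Il34 passed without L6 CT (adjusted p = 2.3e-04). When neurons with 3 or more microglial marker UMIs were left out, only Il34 passed (adjusted p = 0.0147). That step left 1 of 44 L6 CT and 1 of 27 Vip nuclei of the female library.

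**Figure D4:**
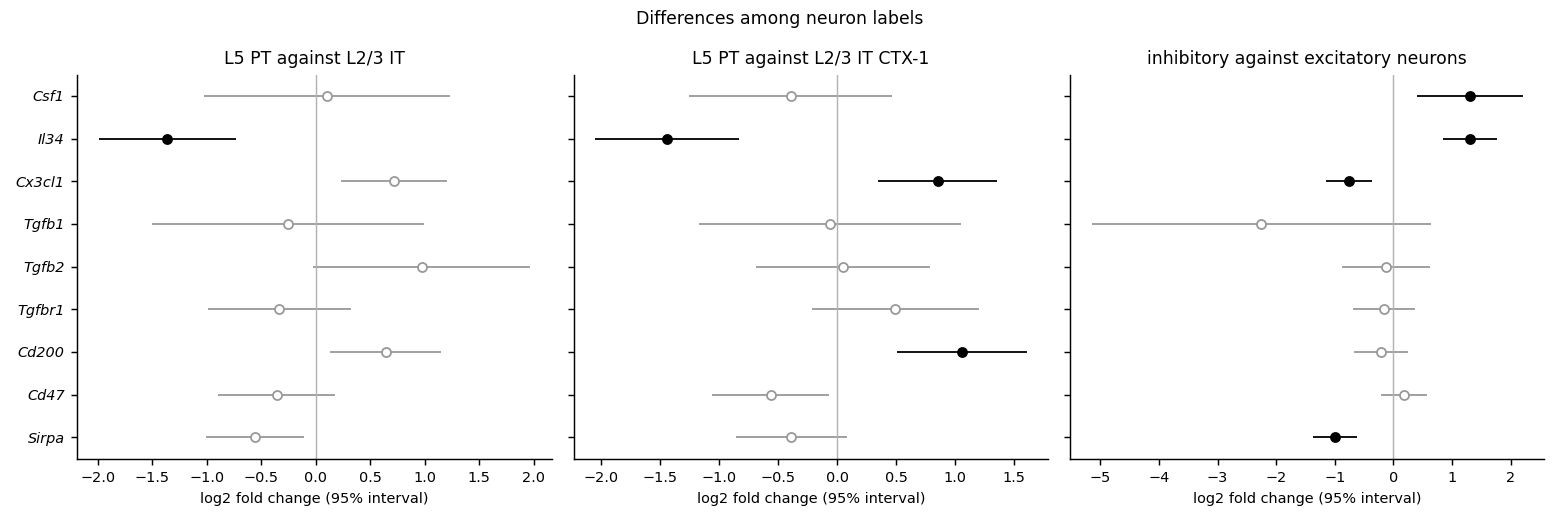
Log2 fold change of 9 of the genes (horizontal, bars 95% intervals from the SE) for L5 PT against both L2/3 IT labels, L5 PT against L2/3 IT CTX-1 alone, and the 3 inhibitory against the 6 excitatory labels. Filled points passed an adjusted p of 0.05; Il34 was lower in L5 PT in both panels that test it and higher in inhibitory labels.

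L5 PT neurons, which project below the cortex, and L2/3 IT neurons, which project within it, are the layers whose fates the study compared. Of the 9 genes 1 was called, Il34, lower in L5 PT by -1.36 ± 0.32 on the log2 scale (adjusted p = 0.0048 by edgeR's quasi-likelihood test), where 10% of all genes were called, 5.29% higher and 4.7% lower. The call was lost when neurons with microglial UMIs were left out (-1.03, adjusted p = 0.436). Cx3cl1 was 0.72 ± 0.25 (95% interval 0.23 to 1.20, adjusted p = 0.0677) and Cd200 0.64 ± 0.26 (0.13 to 1.15, adjusted p = 0.130), and both passed with the library as a replicate block (0.71, adjusted p = 0.0246, and 0.65, adjusted p = 0.0482). The value of L2/3 IT rests in part on the female L2/3 IT CTX-2 nuclei.

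Against L2/3 IT CTX-1 alone, a comparison added after the data were seen, 3 genes were called, where 10.4% of all genes were, with 2 higher (4.79% of all genes) and 1 lower (5.64%). Cx3cl1, at 77.2 and 65.1 CPM in L5 PT and 44.5 and 36.3 CPM in L2/3 IT CTX-1, was 0.85 ± 0.26 higher on the log2 scale (adjusted p = 0.0301 by edgeR's quasi-likelihood test). Cd200, at 80.2 and 63.0 CPM against 43.9 and 27.2 CPM, was 1.06 ± 0.28 higher (adjusted p = 0.0123). Il34, at 25.1 and 13.9 CPM against 63.8 and 41.7 CPM, was lower by -1.44 ± 0.31 (adjusted p = 0.0020). For all 3 genes the libraries of L5 PT and L2/3 IT CTX-1 did not overlap. After subtraction of the profile of empty droplets, Cx3cl1 no longer passed (0.93, adjusted p = 0.100). None of the 3 passed with neurons with microglial UMIs left out.

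Of the 40 pathway genes tested, 6 differed between L5 PT and L2/3 IT and 7 against L2/3 IT CTX-1 alone, where 10% and 10.4% of all genes did. Itgb8 was lower in L5 PT, at 3.06 and 3.18 CPM against 23.5 and 24.5 CPM in L2/3 IT CTX-1 (-2.84 ± 0.48 on the log2 scale), and Tgif1, a repressor of TGF-beta targets, was lower by -1.89 ± 0.51 against both L2/3 IT labels. Ltbp3 was lower by -1.95 ± 0.56 against L2/3 IT CTX-1. Pros1, a ligand of the engulfment receptors MERTK and AXL, was 1.29 ± 0.26 higher there. Against both L2/3 IT labels, Gas6, the other ligand of these receptors, was 1.0 ± 0.24 higher and Ltbp1 1.01 ± 0.29 higher. Neither was called against L2/3 IT CTX-1 alone by edgeR's quasi-likelihood test. There Gas6 was 0.55 ± 0.25 (adjusted p = 0.212) and Ltbp1 0.07 ± 0.26 (adjusted p = 0.942), so both calls rest on L2/3 IT CTX-2.

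The 3 inhibitory labels differed from the 6 excitatory labels in 4 genes, where 19.8% of all genes did, with 2 higher (9.4% of all genes) and 2 lower (10.4%). Il34 was 1.30 ± 0.23 higher on the log2 scale (adjusted p = 1.4e-04 by edgeR's quasi-likelihood test). That value rests on L6 CT, since without it the difference was 0.49 and did not pass (adjusted p = 0.068), and the ranges of inhibitory and excitatory labels overlapped. Sirpa was lower by -1.0 ± 0.19 (adjusted p = 2.8e-04) and Cx3cl1 by -0.75 ± 0.20 (adjusted p = 0.0066). The Sirpa and Cx3cl1 calls were lost with neurons with microglial UMIs left out (adjusted p = 0.078 and 0.250).

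Csf1 was 1.30 ± 0.46 higher in inhibitory labels (adjusted p = 0.0471 by edgeR's quasi-likelihood test). It was -0.62 in the male library alone and 1.71 in the female library alone, and the call was lost without L6 CT (1.04, adjusted p = 0.106), after subtraction of the profile of empty droplets (adjusted p = 0.057) and under the study's limits on nuclei (adjusted p = 0.060). Values of a single library are differences of mean log2 levels with 0.5 CPM added, and male Vip had 0 Csf1 UMIs in 34 nuclei. As mean CPM of labels, Csf1 stood at 10.3 in inhibitory and 8.07 in excitatory labels (male), and at 24.2 and 8.38 (female). Of the pathway genes, Smad3, a mediator of the TGF-beta signal, was lower by -3.22 ± 0.29, with 0 to 23.2 CPM in inhibitory and 39.6 to 186 CPM in excitatory labels. Tgif1 was lower by -2.93 ± 1.01 (adjusted p = 0.0417), Ltbp3 was 1.53 ± 0.42 higher and Ptprz1 3.12 ± 0.22 higher.

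**Figure D5:**
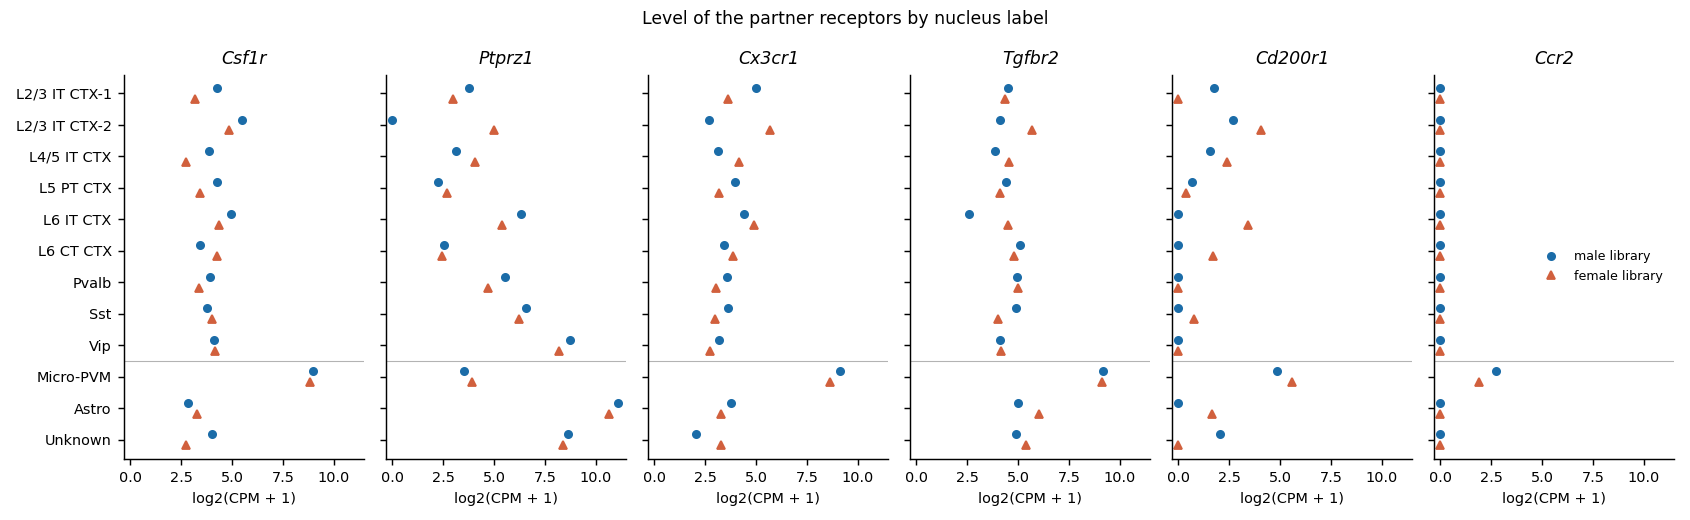
Level of 6 partner receptors as log2(CPM + 1) (horizontal) in the 12 labels, with circles for the male and triangles for the female library. Csf1r, Cx3cr1, Tgfbr2 and Cd200r1 were highest in Micro-PVM in both libraries, Ptprz1 was highest in Astro, and of these 12 labels Ccr2 had UMIs in Micro-PVM alone.

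Of all genes tested in Micro-PVM, 64.1% were called, 36.3% higher and 27.8% lower, and the counts of each list stand beside these shares. The partner genes were a list of 12, of which 8 were tested and 8 differed in Micro-PVM, 6 higher and 2 lower, with a median log2 fold change of 4.91 against 0.18 over all genes. Of 14 genes of release and activation, 12 were tested, and 7 were higher and 3 lower in Micro-PVM. Of 11 genes of the TGF-beta signal, 9 were tested and 8 were higher there, among them Smad6, an inhibitor of the pathway, with 23.3 and 22.6 CPM in Micro-PVM, 24.8 and 34.9 CPM in Astro and 0 in most sums of neuron labels. Of 14 other genes that guide engulfment, 10 were tested, with 6 higher and 2 lower, among them Cd22 at 27.3 and 37.6 CPM in Micro-PVM and at most 1.22 CPM in neuron labels. Of 8 other chemokines only Cxcl16 passed the filter, at 57.3 and 52.5 CPM in Micro-PVM.

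In Astro, where 19.4% of all genes were higher and 16.5% lower, 2 of 8 partner genes, 6 of 12 release genes, 4 of 9 signal genes and 5 of 10 engulfment genes were higher, and 2 engulfment genes were lower, Panx1 by -4.50 ± 0.84 and Gas6 by -1.60 ± 0.33 on the log2 scale. The microglial marker P2ry12 was among the higher engulfment genes, by 1.97 ± 0.67. In Unknown, where 19% of all genes were higher and 14.2% lower, 2 of 8 partner genes were higher, 5 of 12 release genes were higher and 1 lower, 3 of 9 signal genes were higher and 1 lower, and the 1 engulfment gene called was Gas6, lower by -2.08 ± 0.27.

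The neuronal nuclei were also split by whether an Atf3 UMI was found after thinning to 2300 UMIs, in 10 pairs of library and neuron label with at least 10 nuclei on each side. Of 1930 genes tested 7 were called (0.363%, with 0.155% higher and 0.207% lower) by edgeR's quasi-likelihood test, with 182 at an unadjusted p under 0.05, and none of the 10 signalling genes passed the filter on low counts. With all UMIs, 5 of them were tested and 0 were called, where 5.18% of the 3974 genes tested were. Pooled over the pairs, Cd200 stood at 51.5 CPM in 135 nuclei with and 43.5 CPM in 629 without an Atf3 UMI (male), and at 58.6 and 36.4 CPM in 245 and 645 nuclei (female). Il34 stood at 61.2 and 51.8 CPM, and at 39.0 and 34.4 CPM. Cx3cl1 stood at 51.5 and 58.1 CPM, and at 37.3 and 37.1 CPM. As a mean over labels of equal weight, Cd200 stood at 48.4 with and 36.5 CPM without an Atf3 UMI (male), and at 54.9 and 41.2 CPM (female). On that scale Il34 stood at 52.8 and 54.4 CPM, and at 74.1 and 43.1 CPM, and Cx3cl1 at 55.3 and 51.0 CPM, and at 39.9 and 22.2 CPM. In the male library the order of nuclei with and without a UMI thus turned between the pooled value and the mean for Il34 and Cx3cl1. A difference was not detectable at this depth, and all nuclei had been sorted for the reporter, so the nuclei without a UMI are no control.

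Over the 9 neuron labels, the gene with the pattern most like each signalling gene was found among 10274 genes as the highest Pearson correlation of log2(CPM + 1), ranked by the lower of the 2 libraries. The closest was Stab1 for Cd200 (r = 0.94 and 0.93), Pparg for Il34 (0.91 and 0.92), Pcgf2 for Sirpa (0.90 and 0.88), Zfp780b for Csf1 (0.88 and 0.88), P2rx7 for Tgfb1 (0.86 and 0.91), Plekha1 for Cd47 (0.84 and 0.89), Ldb3 for Tgfb2 (0.83 and 0.91), Ldb2 for Cx3cl1 (0.82 and 0.81) and Ptbp1 for Tgfbr1 (0.86 and 0.79). The second closest were Rgs3, Gm35256, Fat1, Tmem33, Abhd17b, Sgip1, Cox18, Ssbp2 and Mief1 in the same order. The points of each correlation share libraries and depth, and each was picked as the highest of many.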

How the data were processed

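Nuclei were profiled with the 10x Genomics 3′ v3 assay. Per the labels and the study's methods, the authors counted UMIs with Cell Ranger on mm10 with introns (versions differ between sources; the processing notes name 3.1.0), and deposited raw counts per gene and barcode without normalization; the rows of the reporter were not among those used. The authors also deposited a table of nuclei with predicted labels and the percent of mitochondrial UMIs, which was used as it is. Its labels were made from these same counts. No doublet caller was run and no nuclei were removed as doublets. The deposited SCTransform matrix of corrected values was not used.

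The 10 genes, the 5 lists of 59 pathway genes and the markers were chosen with earlier results of these data known. Counts were summed per library and label. Shares and CPM have exact 95% intervals, which cover counting error only, and 3 counts were taken as the limit of a 0. Shares were repeated with nuclei thinned to 2300 UMIs. Nuclei used had a median of 1886 UMIs (male) and 3745 UMIs (female). Sums were fitted in edgeR 4.0.16 (R 4.3.3) with TMM, filterByExpr, the quasi-likelihood test and Benjamini-Hochberg adjustment over 10824 genes, at a threshold of 0.05. Contrasts weigh each label the same. The SE of a fold change was its absolute log2 value divided by the square root of the test's F statistic. Its 95% interval reaches 1.96 SE to each side. The common dispersion was 0.0319, on 12 residual degrees of freedom. The Atf3 split had the library and label pair as a block.

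All sums of a library stem from 1 pool of animals, which pairs the labels. The correlation of their deviations ran from 0.0235 to 0.402 over 66 pairs of labels (median 0.146). Alternatives were size factors by RLE, no filter, DESeq2 1.42.0, the library as a block, ambient RNA subtracted (the profile of barcodes with up to 50 UMIs, scaled per sum by genes of other cell types, 2.84 to 26.9%), the study's limits of 6000 genes and 5% mitochondrial UMIs, neurons with 3 or more microglial UMIs left out, neuron labels only, L6 IT left out and each library alone. Added after the data were seen were L6 CT left out and L5 PT against L2/3 IT CTX-1; 1 further alternative is not reported here. On simulated counts with 200 changed genes, the fit was checked before use.

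Genes named were all 10, partners fixed by name, and, per comparison and direction, the 2 called pathway genes with the largest fold, plus the 2 genes most like each member in pattern over neuron labels. Coordinates are of GENCODE vM21 on GRCm38, and promoters of RefSeq GRCm38.p6.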

Additional observations from a re-analysis of the deposited data

Results flagged for a closer look

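Labels outside the 12 held signals as well. Csf1 in the few nuclei labelled Oligo stood at 111 CPM (male, 6 UMIs in 26 nuclei, 95% interval 40.7 to 241) and 137 CPM (female, 27 UMIs in 42 nuclei, 90.4 to 200), and Il34 in nuclei labelled VLMC, the vascular leptomeningeal cells, stood at 236 CPM (113 nuclei) and 361 CPM (161 nuclei), above each of the 12 labels in both libraries. Tgfb2 stood at 195 CPM (male) and 111 CPM (female) in SMC-Peri, above each of the 12 labels in the male library, and at 195 and 44.8 CPM in VLMC, where Ccl2 had 3 and 1 UMIs. None of these labels was part of a test. For Csf1 in inhibitory against excitatory neurons, the mean log2 difference had opposite signs in the libraries, at -0.62 (male) and 1.71 (female), which was not tested. The male value takes in Vip at 0 UMIs. Mean CPM was higher in inhibitory labels in both libraries, at 10.3 against 8.07 (male) and 24.2 against 8.38 (female).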

How the results depend on the processing

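Of the fold changes of single genes under an alternative with a test, 291 kept their direction and their side of the threshold, 13 lost a call, 9 gained one and 1 reversed. Of the fold changes in 1 library only, given with no test, 37 moved by at most 1 SE of the value from both libraries, 24 moved by more and 1 reversed. Both reversals were of Csf1 in inhibitory against excitatory neurons. The male library only gave -0.62, with Vip at 0 UMIs, against 1.71 with the female library only. The other reversal was -0.17, with neurons with microglial UMIs left out. That exclusion also reduced the genes tested to 6103 and the genes called to 3911 from 6935 for Micro-PVM, 2478 from 3878 for Astro, 2223 from 3598 for Unknown, 298 from 1082 for L5 PT against L2/3 IT, 307 from 1130 against L2/3 IT CTX-1, 699 from 2145 for inhibitory neurons and 1334 from 3438 among neuron labels. Of the signalling genes it left 2 lower in Micro-PVM, 1 lower in Unknown, 0 lower in L5 PT against L2/3 IT, 0 higher and 0 lower against L2/3 IT CTX-1, 1 higher and 0 lower in inhibitory neurons, and 1 among neuron labels. With ambient RNA subtracted, 1 was lower in Unknown, 1 higher in L5 PT against L2/3 IT CTX-1 and 1 higher in inhibitory neurons, where the study's limits on nuclei also left 1. With L6 CT left out, 1 was higher in L5 PT against L2/3 IT and 0 were higher in inhibitory neurons. With the library as a replicate block, 2 signalling genes were higher in L5 PT against L2/3 IT, Sirpa passed in Unknown, and 1835 genes were called against L2/3 IT CTX-1; the block changed no other call of the 10 genes. The Atf3 split called 70 genes with no filter, 206 with all UMIs, and from 1 to 10 with a library left out. The neuron label with the highest mean level was the same in 6 of the 9 genes in the female library alone and in 5 in the male library alone. The causes of these changes were not tested. Il34 had no estimable value against neurons with ambient RNA subtracted or microglial UMIs excluded. Ccl2, on 11 UMIs, was called in Micro-PVM only with no filter on low counts. The pools allow no statement on animals, and labels with few nuclei, Vip and L6 CT above all, limit what a 0 shows.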
